A study of Homo sapiens with 6 samples.

Results

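The collagen, laminin and integrin genes were taken from the expression table by their gene symbols, as the chain genes named COL, LAM or ITG with the letters and numbers of a chain. The rule found 82 genes of 60664 in the table, namely 44 collagen, 12 laminin and 26 integrin genes, and it used no measured value. The samples were 67R cells, a derivative of the NCI-H1975 lung adenocarcinoma line that acquired resistance to ASK120067, an EGFR inhibitor, under increasing drug doses. Every library therefore shares this resistant background, and no parental NCI-H1975 library was compared here. The control group, labelled NC, received a negative control siRNA (siNC), and the group labelled BCAT1 knockdown received siRNA against BCAT1 (siBCAT1), with 3 libraries in each. The study lists 2 BCAT1 siRNAs and gives the plain name siBCAT1, which the sample titles carry, to 1 of them, so that by this name the libraries rest on 1 siRNA. The time after transfection is not given in the sources used here, and 67R stands for 1 resistant derivative of 1 cell line. The labels do not say whether the 3 samples of a group were separate cultures, so that p-values measure only the spread between these samples.

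Collagens are triple helices of alpha chains that form fibrils, networks or links between other matrix fibres. Laminins are trimers of an alpha, a beta and a gamma chain, and they are the main adhesive proteins of the basement membrane on which epithelial cells sit. Integrins are pairs of an alpha and a beta chain in the cell membrane that bind these proteins outside the cell and connect them to the actin or keratin skeleton inside. In lung adenocarcinoma, tumour cells make part of this matrix themselves and receive survival signals from it through integrins.

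Expression was given in TPM, a transcript level scaled for transcript length and for the total of a library. A gene was tested where its mean over the 6 libraries was at least 1 TPM, and fold changes are differences of log2(TPM + 1), siBCAT1 minus siNC, with limma and Benjamini-Hochberg adjustment over all 14286 genes tested. On this scale the changes of low genes are understated. BCAT1, the cytosolic transaminase that starts the breakdown of branched-chain amino acids, read 42.7, 42.2 and 29.8 TPM in the siNC libraries and 8.78, 7.1 and 8.0 TPM in the siBCAT1 libraries. The groups did not overlap, and the knockdown is seen in each siBCAT1 library (log2 fold change -2.12, SE 0.15, limma adjusted p = 0.000272).

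Of the 82 genes, 33 passed the filter (17 collagens, 6 laminins and 10 integrins). After BCAT1 knockdown 13 of these 33 changed, 9 of them lower and 4 higher. This is 39.4% of the members tested, against 27.1% of all genes tested. More abundant genes were called more often. At a minimum mean of 5 TPM, 3575 of all 10456 genes were called, beside 5 of 12 collagens, 4 of 4 laminins and 1 of 8 integrins. By direction in the main result, 27.3% of the members were lower and 12.1% higher, where 10.4% of all genes tested were lower and 16.7% higher. The tilt over all genes depended on the scaling, with 2382 higher and 1483 lower here but 2042 and 1865 under quantile normalization, while the counts of members called in each family and direction were the same. The 3 families did not look alike. Laminins fell in 4 of 6 genes and rose in none, integrins fell in 2 of 10 and rose in none, and collagens split into 3 that fell and 4 that rose among 17. Of these 4, COL9A2 and COL5A2 passed the filter only through the siBCAT1 libraries, in which they are high, so that the count of collagens that rose is not evidence of a direction. The median log2 fold change was -0.57 over the laminins, -0.05 over the collagens and 0.02 over the integrins, beside 0.04 over all genes tested. The values of the 2 groups did not overlap for 17 of the 33 members (51.5%), while 44.1% of all genes tested had such separate groups. COL9A2, COL5A2 and COL5A3, which passed the filter only through the siBCAT1 libraries, are among the 17. COL9A2 and COL5A2 are also among the 13 called. The shares of 51.5% and 39.4% are therefore not evidence of an excess over all genes.

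**Figure D1:**
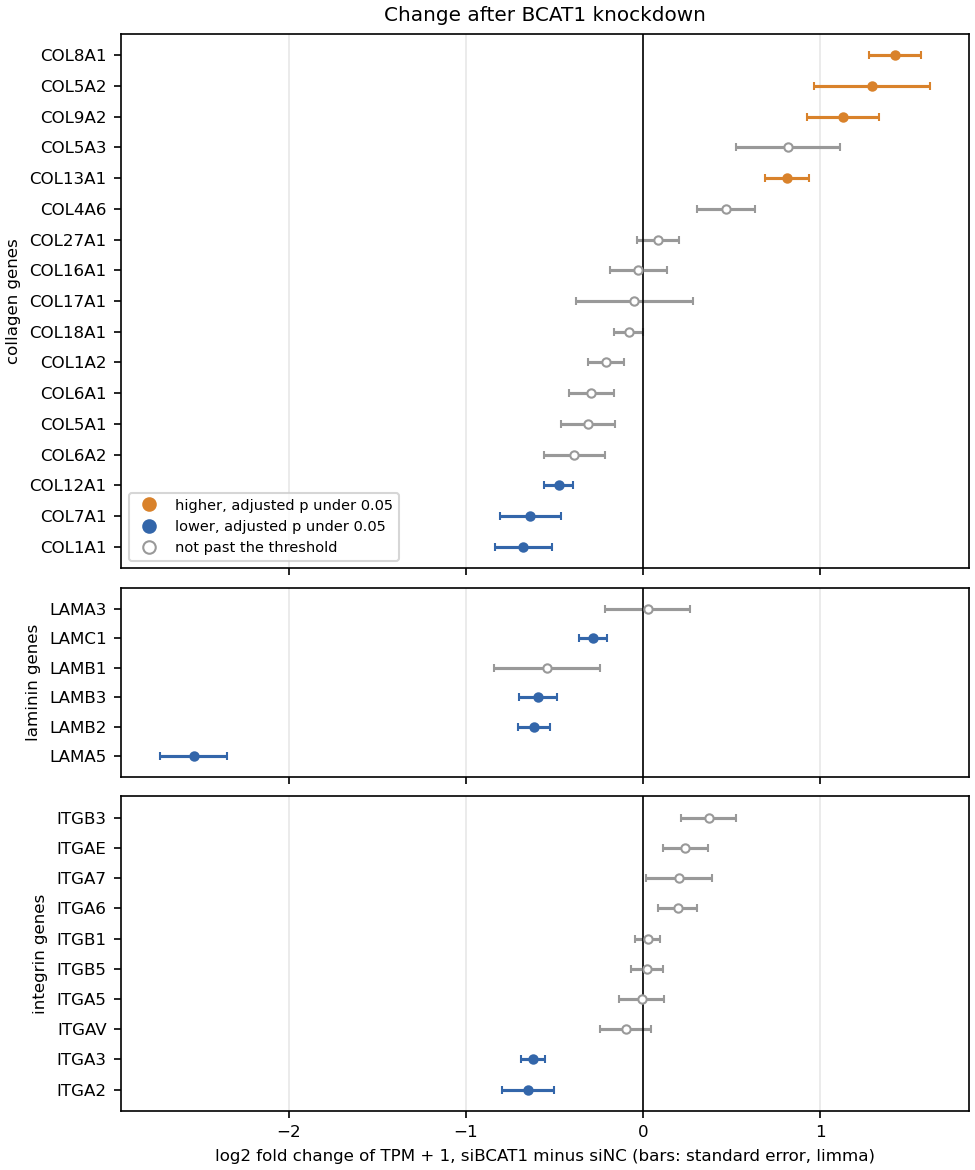
Log2 fold change of TPM + 1 (siBCAT1 minus siNC, x axis) for the 33 tested members, by family, with the standard error from limma as bars (n = 3 libraries a group). Orange and blue mark members higher or lower at an adjusted p under 0.05. LAMA5 stands lowest at -2.54 and COL8A1 highest at 1.42, and the integrins lie between -0.65 and 0.37.

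LAMA5 had the largest log2 fold change among the 33 members tested. It encodes an alpha chain found widely in adult epithelial basement membranes. It read 55.1, 32.6 and 40.9 TPM in the siNC libraries and 6.85, 7.04 and 5.39 TPM in the siBCAT1 libraries. Every siBCAT1 library was far below the lowest siNC library. The mean fell by 85.0%, from 42.9 ± 11.3 to 6.43 ± 0.903 TPM (SD, n = 3), with a log2 fold change of -2.54 (SE 0.19, limma adjusted p = 0.000291). LAMA5 (ENSG00000130702) lies on chromosome 20 from 62307955 to 62367312 on the minus strand (GRCh38, GENCODE 29). Its end overlaps ADRM1, a proteasome receptor gene on the plus strand. ADRM1 rose, from 208 to 269 TPM (log2 fold change 0.37, limma adjusted p = 0.00529). The library kit keeps strand, but whether the quantification used it is not given in the sources used here. The same limit holds for 7 of the 33 tested members that share their position with an opposite-strand gene of at least 1 TPM, namely LAMA5, LAMB1 (with DLD at 93.0 TPM), ITGA7 (with BLOC1S1 at 64.2 TPM), COL18A1 (with SLC19A1 at 38.4 TPM), ITGAE (with HASPIN at 16.7 TPM), ITGB1 and ITGA6. Whether reads of these opposite-strand genes entered the values of the members was not tested.

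The beta and gamma chains that can pair with LAMA5 fell by less. LAMB2, a beta chain, read 147, 138 and 164 TPM in siNC and 91.2, 107 and 93.5 TPM in siBCAT1. The groups were well apart, and the mean fell by 34.9% (log2 fold change -0.61, SE 0.09, limma adjusted p = 0.00326). LAMC1, the gamma chain shared by most laminins, read 189, 167 and 175 TPM in siNC and 159.7, 139 and 137 TPM in siBCAT1. The highest siBCAT1 library lay just under the lowest siNC library. The mean fell by 17.9% (log2 fold change -0.28, SE 0.08, limma adjusted p = 0.0354), and this call was lost when siNC library 1 (adjusted p = 0.116), siNC library 3 (0.0945), siBCAT1 library 2 (0.115) or siBCAT1 library 3 (0.111) was left out. The LAMC1 call was also lost without the filter on low values (limma adjusted p = 0.0887). The ratio of LAMC1 to LAMA5 in the same library went from between 3.43 and 5.11 in siNC to between 19.8 and 25.5 in siBCAT1. The ratio of LAMB2 to LAMA5 went from between 2.66 and 4.24 to between 13.3 and 17.3. Neither ratio overlapped between the groups, which follows from the larger fall of LAMA5 and is not separate evidence.

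LAMB3 encodes the beta chain of the laminin that anchors epithelial cells, in which it pairs with the LAMA3 chain. It read 127, 109.8 and 130.2 TPM in siNC and 89.2, 70.2 and 83.4 TPM in siBCAT1. No siBCAT1 library reached an siNC library, and the mean fell by 33.9% (log2 fold change -0.59, SE 0.11, limma adjusted p = 0.00732). LAMA3 was near the filter. It read 1.39, 1.86 and 1.04 TPM in siNC and 1.95, 1.56 and 0.95 TPM in siBCAT1, overlapping groups with a log2 fold change of 0.03 (SE 0.24, limma adjusted p = 0.949). LAMB1 did not pass the test either. It read 7.26, 2.89 and 3.49 TPM in siNC and 3.01, 3.01 and 1.89 TPM in siBCAT1 (log2 fold change -0.54, SE 0.30, limma adjusted p = 0.223), and siNC library 1 stood well above its other 5 values. Without that library the log2 fold change was -0.22.

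Summed by chain class, the laminin alpha genes went from 45.1 ± 11.1 to 8.31 ± 1.57 TPM (SD, n = 3), a change in mean of -81.6%, most of it LAMA5. The beta genes went from 277 ± 23.8 to 181 ± 2.24 TPM and the gamma genes from 178 ± 11.2 to 146 ± 12.5 TPM. The groups were apart in each class. No test was run on the sums, which describe RNA and not assembled trimers.

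**Figure D2:**
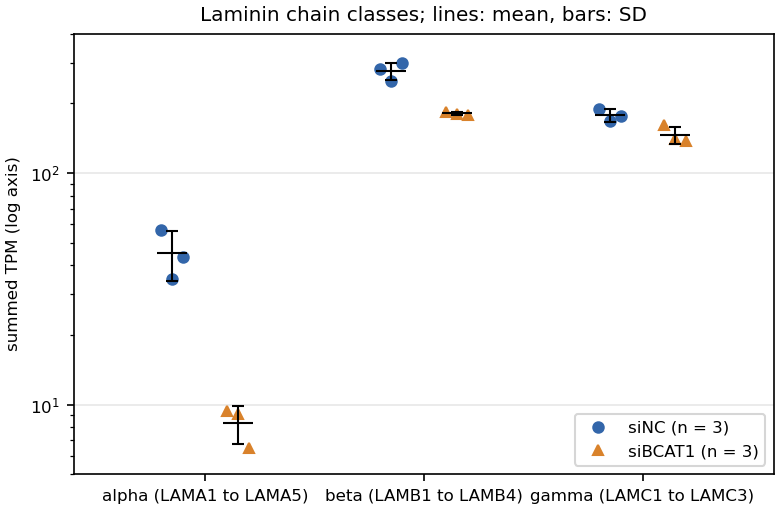
Summed TPM (y axis, log scale) of the alpha, beta and gamma laminin genes in each library, circles for siNC and triangles for siBCAT1 (n = 3 each). Lines are means and bars SD. The alpha sum lies between 34.9 and 57.0 TPM in siNC and between 6.5 and 9.34 TPM in siBCAT1, a wider gap than in the beta or gamma class.

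The bases just before the start of these genes are shown because 4 laminin genes fell together and 4 collagen genes rose. Of the 33 tested members, 25 had an entry in the RefSeq promoter table (GRCh38.p14). COL8A1, COL5A2, ITGA7, ITGA3, COL6A1, COL1A1, ITGB3 and COL1A2 had none. For the 4 laminins that fell and for COL9A2 and COL13A1, which rose, the 120 bases before the RefSeq start read as follows on the strand of the gene, with matches to GGGCGG on either strand (GGGCGG or CCGCCC) in capitals. RefSeq and GENCODE 29 place some starts differently, so that the COL9A2 window lies wholly within the GENCODE gene and those of LAMB2, LAMB3 and COL13A1 in part.
LAMA5, chr20:62367313-62367432, minus strand: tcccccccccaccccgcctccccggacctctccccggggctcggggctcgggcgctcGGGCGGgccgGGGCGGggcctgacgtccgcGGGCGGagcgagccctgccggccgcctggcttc
LAMB2, chr3:49133051-49133170, minus strand: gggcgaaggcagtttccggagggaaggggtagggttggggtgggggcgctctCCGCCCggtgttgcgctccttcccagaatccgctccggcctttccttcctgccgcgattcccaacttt
LAMB3, chr1:209652426-209652545, minus strand: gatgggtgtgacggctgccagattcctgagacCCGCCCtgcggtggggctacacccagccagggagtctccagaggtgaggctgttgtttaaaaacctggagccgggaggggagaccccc
LAMC1, chr1:183023300-183023419, plus strand: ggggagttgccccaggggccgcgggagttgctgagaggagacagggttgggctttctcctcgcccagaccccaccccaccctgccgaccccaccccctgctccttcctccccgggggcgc
COL9A2, chr1:40317287-40317406, minus strand: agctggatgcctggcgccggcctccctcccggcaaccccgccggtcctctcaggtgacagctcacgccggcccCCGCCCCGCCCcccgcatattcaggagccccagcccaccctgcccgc
COL13A1, chr10:69801786-69801905, plus strand: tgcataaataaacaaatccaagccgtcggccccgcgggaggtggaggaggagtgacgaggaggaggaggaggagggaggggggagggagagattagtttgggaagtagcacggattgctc
The LAMA5 window is 85% G or C and holds 3 copies of GGGCGG, where the median window of tested genes is 68.3% G or C. LAMB2 and LAMB3 hold 1 copy each, and LAMC1 none. Among the collagens that rose, COL9A2 holds 2 overlapping copies and COL13A1 none. The hexamer occurs in 13 of the 25 member windows, in 56.8% of the 9975 windows of tested genes and in 34.0% of all 27305 windows of this length. TATAAA was found in 2 member windows and TGACTCA in 1, beside 2.63% and 1.33% of the windows of tested genes. These matches are letters in a window and were not tested for binding.

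Integrin RNA was dominated by ITGB1, the beta chain shared by most matrix-binding integrins, and by ITGA5, its partner in the fibronectin receptor. ITGB1 read 583.9, 579.5 and 530.4 TPM in siNC and 623, 569 and 533 TPM in siBCAT1. The groups overlapped (log2 fold change 0.02, SE 0.07, limma adjusted p = 0.825, with a sign that turned under median-ratio scaling and with a length correction). ITGB1 made up 89.0% to 91.3% of the beta integrin sum in every library. ITGA5 read 229.9, 171 and 212 TPM in siNC and 229.3, 183 and 195 TPM in siBCAT1, again overlapping (log2 fold change -0.01, SE 0.13, limma adjusted p = 0.967).

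ITGA3 and ITGA2 were the 2 integrins that fell. ITGA3, whose product pairs with ITGB1 as a laminin receptor, read 94.2, 86.8 and 85.6 TPM in siNC and 58.1, 59.5 and 54.6 TPM in siBCAT1. All 3 siBCAT1 libraries were below all siNC libraries. The mean fell by 35.4% (log2 fold change -0.62, SE 0.07, limma adjusted p = 0.00109), and the ITGA3 share of the alpha integrin sum went from between 22.3% and 24.5% to between 15.3% and 17.2%. ITGA2, a collagen receptor chain that also pairs with ITGB1, read 5.24, 4.20 and 4.15 TPM in siNC and 2.80, 2.26 and 2.50 TPM in siBCAT1. The groups did not overlap, and the mean fell by 44.4% (log2 fold change -0.65, SE 0.15, limma adjusted p = 0.0177). The ITGA2 call was lost without siNC library 1 (adjusted p = 0.0537), siBCAT1 library 2 (0.0581) or siBCAT1 library 3 (0.0510). The count of integrins that fell was then 1.

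ITGA6, another laminin-binding alpha chain, read 17.2, 21.7 and 17.1 TPM in siNC and 20.4, 22.1 and 21.7 TPM in siBCAT1. These groups overlapped (log2 fold change 0.19, SE 0.11, limma adjusted p = 0.229, but 0.0433 without siNC library 2), while the ratio of ITGA3 to ITGA6 went from between 4.0 and 5.47 to between 2.52 and 2.84. ITGB4, which pairs only with ITGA6 and anchors cells to laminin at hemidesmosomes, had a mean of 0.978 TPM and was not tested. Its values were 1.42, 0.99 and 1.90 TPM in siNC and 0.50, 0.55 and 0.51 TPM in siBCAT1. Each siBCAT1 value was below each siNC value, at levels where the adjusted p without the filter was 0.0911 (limma).

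None of the chains of the RGD-binding and remaining integrins passed the test. ITGAV, the common alpha chain for vitronectin, read 20.7, 20.1 and 17.3 TPM in siNC and 22.1, 17.4 and 15.1 TPM in siBCAT1 (log2 fold change -0.10). Of its beta partners, ITGB5 read 47.8, 42.1 and 49.6 TPM in siNC and 43.9, 50.8 and 46.9 TPM in siBCAT1. ITGB3 read 15.1, 11.0 and 12.6 TPM in siNC and 19.4, 13.8 and 17.7 TPM in siBCAT1 (log2 fold change 0.37, SE 0.16, limma adjusted p = 0.122). These 3 genes had overlapping groups. ITGAE, whose product binds E-cadherin, and ITGA7, a laminin receptor chain of muscle, had log2 fold changes of 0.24 and 0.20 with overlapping groups. Summed over all members, integrin RNA was 1009 ± 43.1 TPM in siNC and 996 ± 65.5 TPM in siBCAT1 (SD, n = 3), a difference smaller than either spread.

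**Figure D3:**
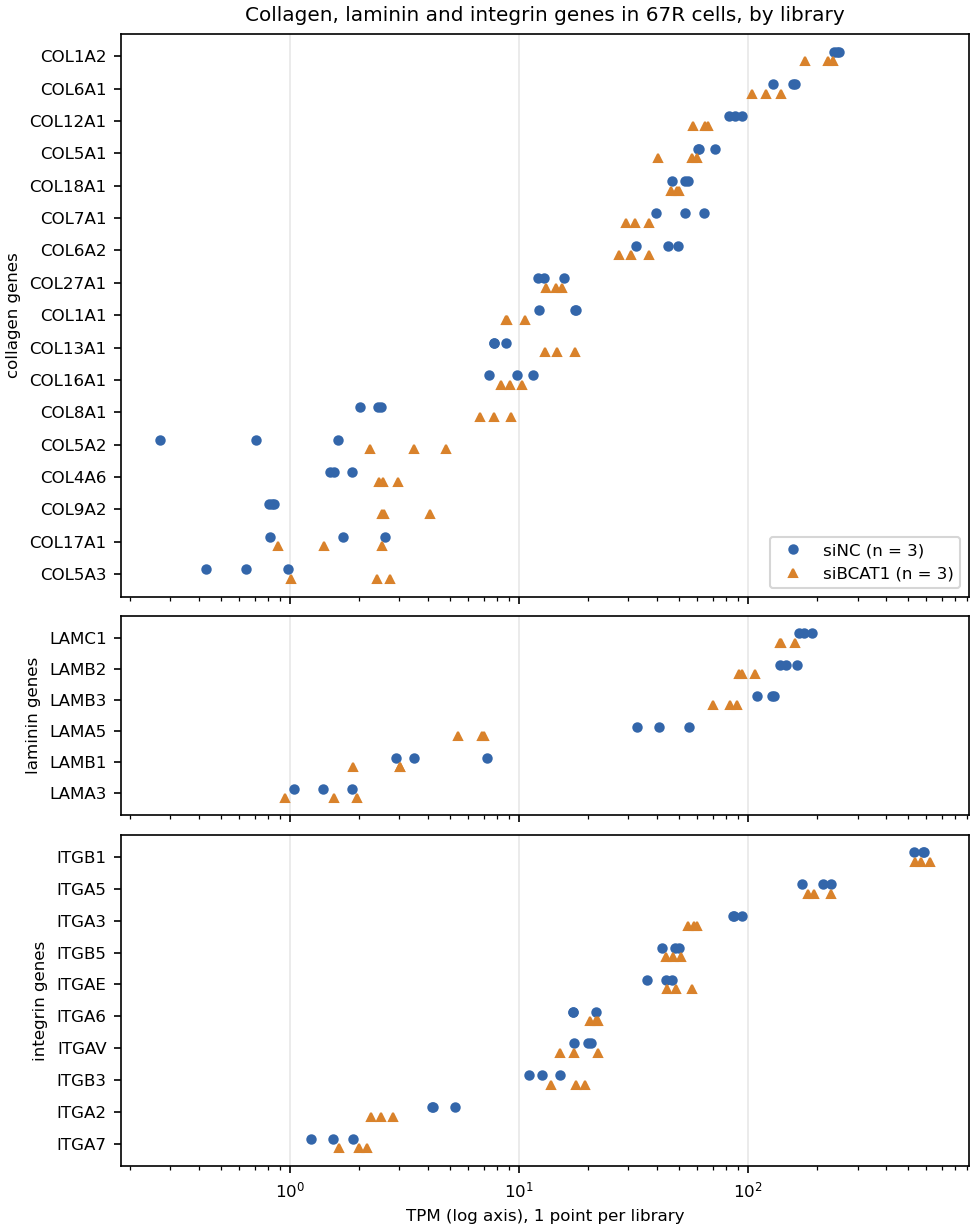
TPM (x axis, log scale) of each tested collagen, laminin and integrin gene in every library, circles for the 3 siNC and triangles for the 3 siBCAT1 libraries. Separate groups are widest for LAMA5, COL8A1 and COL9A2, while ITGB1 and ITGA5, the most abundant integrins, overlap.

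The most abundant collagen RNA was COL1A2, which made up 30.9% to 35.7% of the summed collagen TPM in every library, followed by COL6A1. Summed collagen was 748 ± 62.9 TPM in siNC and 634 ± 70.8 TPM in siBCAT1 (SD, n = 3), with overlapping libraries. Among the abundant chains, COL12A1, COL7A1 and COL1A1 fell. COL12A1, a fibril-associated collagen that coats type I fibrils, read 93.6, 87.3 and 82.8 TPM in siNC and 66.6, 65.1 and 57.2 TPM in siBCAT1. The groups were apart, and the mean fell by 28.4% (log2 fold change -0.48, SE 0.08, limma adjusted p = 0.00611).

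COL7A1 makes the anchoring fibrils that tie epithelial basement membranes to the stroma. It read 63.9, 39.5 and 53.2 TPM in siNC and 36.8, 32.0 and 29.4 TPM in siBCAT1. The groups did not overlap, but siNC library 2 came close to siBCAT1 library 1. The mean fell by 37.3% (log2 fold change -0.64, SE 0.17, limma adjusted p = 0.0324). The call was lost without siNC library 1 (adjusted p = 0.102), siNC library 3 (0.111), siBCAT1 library 1 (0.0636), siBCAT1 library 2 (0.104) or siBCAT1 library 3 (0.113).

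COL1A1 and COL1A2 are the chains of type I collagen, the main fibrillar collagen. COL1A1 read 17.6, 12.2 and 17.7 TPM in siNC and 10.6, 8.74 and 8.89 TPM in siBCAT1. Its groups were apart, and the mean fell by 40.4% (log2 fold change -0.68, SE 0.16, limma adjusted p = 0.0197). This call was lost without siNC library 1 (adjusted p = 0.0886), siNC library 3 (0.0800), siBCAT1 library 2 (0.0794) or siBCAT1 library 3 (0.0745). COL1A2 read 249.5, 236 and 243 TPM in siNC and 223, 234 and 177 TPM in siBCAT1. The groups were just apart, and the change did not pass the test (log2 fold change -0.21, SE 0.10, limma adjusted p = 0.170). It was -0.09 without siBCAT1 library 3. COL1A2 exceeded COL1A1 by 13.8 to 19.4 times in siNC and by 20.0 to 26.7 times in siBCAT1, although the type I trimer usually holds more COL1A1 than COL1A2 chains.

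The 4 collagens that rose had means between 1.95 and 11.6 TPM over the 6 libraries, below the 12.6 TPM of COL1A1. COL8A1, a short-chain collagen of networks around vessels and in the cornea, read 2.02, 2.49 and 2.41 TPM in siNC and 6.74, 7.74 and 9.19 TPM in siBCAT1. Every siBCAT1 library was well above every siNC library, a 3.42-fold difference in mean TPM (log2 fold change 1.42, SE 0.15, limma adjusted p = 0.000973). COL13A1, a collagen that spans the cell membrane, read 7.75, 8.73 and 7.8 TPM in siNC and 17.6, 14.6 and 13.0 TPM in siBCAT1. Its groups were also apart, with a 1.86-fold difference in mean TPM (log2 fold change 0.81, SE 0.13, limma adjusted p = 0.00393).

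COL9A2, a chain of a fibril-associated collagen known from cartilage, read 0.81, 0.85 and 0.83 TPM in siNC and 4.07, 2.53 and 2.58 TPM in siBCAT1 (log2 fold change 1.13, SE 0.20, limma adjusted p = 0.00761). COL5A2, a fibril-nucleating chain of type V collagen, read 1.62, 0.71 and 0.27 TPM in siNC and 4.78, 2.24 and 3.47 TPM in siBCAT1 (log2 fold change 1.29, SE 0.33, limma adjusted p = 0.0259). In both genes all siBCAT1 values were above all siNC values. Both had an siNC mean under 1 TPM, as did COL5A3, which also passed the filter through the siBCAT1 libraries. The COL5A2 call was lost without siNC library 2 (adjusted p = 0.0642), siNC library 3 (0.0782), siBCAT1 library 1 (0.0901) or siBCAT1 library 3 (0.0805). The collagen count of 7 went to 4 without siNC library 3 or without siBCAT1 library 3.

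The partners of COL5A2 did not pass the test. COL5A1, the abundant chain of type V collagen, read 71.8, 60.3 and 60.7 TPM in siNC and 59.6, 56.9 and 40.2 TPM in siBCAT1 (log2 fold change -0.31, SE 0.15, limma adjusted p = 0.178, and -0.14 without siBCAT1 library 3). COL5A3, the member just above the 1 TPM filter with a mean of 1.37 TPM, read 0.98, 0.43 and 0.64 TPM in siNC and 2.39, 1.01 and 2.74 TPM in siBCAT1 (log2 fold change 0.82, SE 0.29, limma adjusted p = 0.0784, but 0.0255 without siBCAT1 library 2). Neither gene had overlapping groups (COL5A1 lower and COL5A3 higher in siBCAT1), but the margins were small. The ratio of COL5A1 to COL5A2 was between 44.3 and 225 in siNC and between 11.6 and 25.4 in siBCAT1. Its denominator, COL5A2, was at 0.27 to 1.62 TPM in siNC and passed the filter only through the siBCAT1 libraries. The change in this ratio is therefore not evidence beyond the COL5A2 values.

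Type VI collagen, which forms beaded filaments near cell surfaces, is usually built from the COL6A1, COL6A2 and COL6A3 chains. COL6A1 read 159.6, 128 and 157 TPM in siNC and 139.7, 119.7 and 104 TPM in siBCAT1 (log2 fold change -0.29, SE 0.13, limma adjusted p = 0.134). COL6A2 read 49.4, 32.4 and 44.8 TPM in siNC and 37.1, 30.9 and 27.3 TPM in siBCAT1 (log2 fold change -0.39, SE 0.17, limma adjusted p = 0.142, but 0.0318 without siNC library 2). Both had overlapping groups, and their ratio stayed between 3.23 and 3.95. COL6A3 did not reach the filter, with 0.11 to 0.70 TPM in the 6 libraries. Of the basement membrane collagens, COL18A1 was at 51.2 and 48.3 TPM in siNC and siBCAT1 with overlapping groups (log2 fold change -0.08). COL4A6 read 1.49, 1.87 and 1.55 TPM in siNC and 2.95, 2.55 and 2.44 TPM in siBCAT1 (log2 fold change 0.47, SE 0.16, limma adjusted p = 0.0714), while COL4A1 stayed at or under 0.25 TPM. COL4A2, also under the filter, read 0.13, 0.04 and 0.19 TPM in siNC and 0.24, 0.41 and 0.54 TPM in siBCAT1. Its groups did not overlap, with a limma adjusted p of 0.136 without the filter. COL27A1, COL16A1 and COL17A1 had log2 fold changes of 0.08, -0.03 and -0.05 with overlapping groups.

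Of the 49 members under the filter (27 collagens, 6 laminins and 16 integrins), 29 had a mean under 0.1 TPM. COL22A1, COL6A5, ITGA8 and ITGA4 were listed at 0 in all 6 libraries. Closest under the filter was COL11A2, a fibrillar collagen chain of cartilage, with a mean of 0.990 TPM and overlapping groups. Without the filter none of these members passed the limma test, 5 had an unadjusted p under 0.05, and the smallest adjusted p was 0.0511. That value belonged to COL15A1, a basement membrane collagen, at 0.47, 0.32 and 0.38 TPM in siNC and 1.70, 0.98 and 1.29 TPM in siBCAT1. ITGA1, a collagen receptor chain, was at 1.14, 0.91 and 0.47 TPM in siNC and 0.27, 0.17 and 0.29 TPM in siBCAT1. In both the groups were apart, as they were in 7 of the 45 members with a value above 0 (4 higher and 3 lower). Among all genes under the filter with a value above 0, 8.68% had such groups.

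Several members are neighbours in the genome (GENCODE 29, GRCh38). ITGA1 and ITGA2 lie 30116 bases apart on chromosome 5, and ITGA2 fell while ITGA1 was lower in every siBCAT1 library. COL3A1 and COL5A2 lie 19150 bases apart on chromosome 2. COL5A2 rose, and COL3A1 had means of 0.26 and 0.60 TPM in siNC and siBCAT1 with groups that did not overlap. ITGA3 and COL1A1, which both fell, lie 92808 bases apart on chromosome 17.

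Genes that fold, modify and cross-link collagen changed in 12 of the 25 tested (8 higher and 4 lower), or 48% beside 27.1% of all genes tested. Their median log2 fold change was 0.12. This list and those below were chosen with earlier results of these data known, so that their shares are not evidence of an excess. Of all genes tested, 16.7% were higher and 10.4% lower. At a minimum mean of 5 TPM, 12 of 20 collagen-making genes were called, beside 3575 of 10456 of all genes. For the other ligands and receptors it was 11 of 18, and for the adhesion machinery 16 of 32. The 8 collagen-making genes that rose act inside the cell on new collagen chains. P4HA1, P4HA2, P4HA3, PLOD3, P3H2, CRTAP, FKBP14, MIA2 and MIA3, which also act inside the cell, were not called. P4HA1, P4HA2 and P4HA3, which like P4HB encode subunits of prolyl 4-hydroxylase, had log2 fold changes of -0.11, -0.13 and 0.05. P4HB, a subunit of prolyl 4-hydroxylase, read 342, 328 and 359.9 TPM in siNC and 513, 471 and 467 TPM in siBCAT1 (log2 fold change 0.49, SE 0.06, limma adjusted p = 0.00143). COLGALT1, which adds galactose to hydroxylysine, went from 209 to 284 TPM (log2 fold change 0.44, limma adjusted p = 0.00197). Also higher were SERPINH1 (the collagen chaperone HSP47), PLOD1, P3H1, P3H3, PPIB and FKBP10, with log2 fold changes between 0.33 and 0.44.

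Those that fell act mostly outside the cell, where PCOLCE, ADAMTS2, LOXL1 and LOXL3, which were not called, act as well. LOX, which cross-links collagen fibrils, read 23.0, 19.0 and 22.2 TPM in siNC and 7.49, 6.23 and 6.13 TPM in siBCAT1. Its groups were far apart, and the mean fell by 69.1% (log2 fold change -1.56, SE 0.12, limma adjusted p = 0.000286). PLOD2, a lysyl hydroxylase of the endoplasmic reticulum whose product marks collagen for stable cross-links, read 109.5, 94.8 and 86.4 TPM in siNC and 46.6, 45.6 and 43.7 TPM in siBCAT1 (log2 fold change -1.07, SE 0.09, limma adjusted p = 0.000478). LOXL2, a relative of LOX, and BMP1, which trims procollagen, had log2 fold changes of -0.48 and -0.56 (limma adjusted p = 0.0082 and 0.00976).

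**Figure D4:**
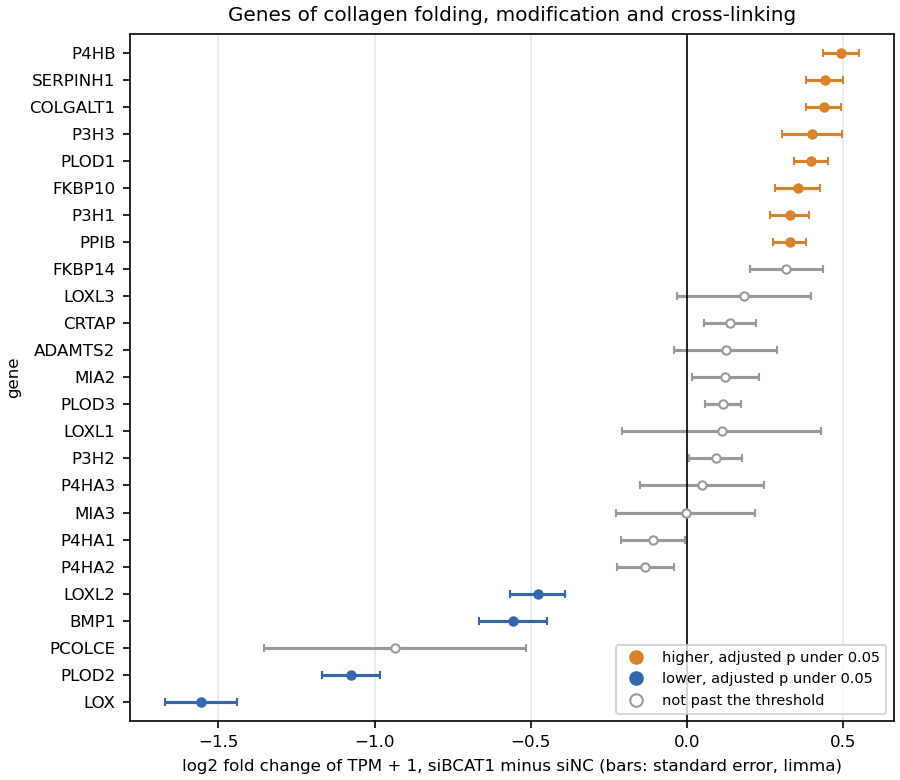
Log2 fold change of TPM + 1 (siBCAT1 minus siNC, x axis) of the 25 tested genes that fold, modify, trim or cross-link collagen, with the limma standard error as bars (n = 3 libraries a group). P4HB is highest at 0.49, and LOX and PLOD2 are lowest at -1.56 and -1.07.

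Among other ligands and receptors of the matrix, 11 of the 22 tested changed (5 higher and 6 lower, median log2 fold change -0.06), or 50% beside 27.1% of all genes tested. FN1, the fibronectin bound by ITGA5 with ITGB1, went from 176 ± 7.05 to 229.5 ± 6.32 TPM (SD, n = 3, log2 fold change 0.38, limma adjusted p = 0.00268). CCN1, a secreted integrin ligand, read 147, 167 and 169 TPM in siNC and 357, 292 and 421 TPM in siBCAT1 (log2 fold change 1.13, SE 0.13, limma adjusted p = 0.00133). CCN2, SDC1 and SDC4 also rose. TGFBI, a matrix protein that binds integrins and collagen, went from 503 to 327 TPM (log2 fold change -0.62, limma adjusted p = 0.00258). CD151, the tetraspanin that associates with ITGA3, went from 259 to 201 TPM (log2 fold change -0.36, limma adjusted p = 0.00318). BCAM, a receptor for the LAMA5 chain, went from 44.1 to 25.2 TPM (log2 fold change -0.78, limma adjusted p = 0.00399). The basement membrane proteoglycan AGRN, the collagen receptor DDR1 and the integrin ligand MFGE8 were also lower. VTN, TNC, THBS1, NID2, HSPG2, FBN1, NTN4, FRAS1, DDR2, DAG1 and CD44 were tested but not called. Among these, the groups were apart for DAG1 (higher in siBCAT1) and for NID2 and CD44 (lower).

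Of the adhesion machinery inside the cell, 14 of the 34 genes tested changed (2 higher and 12 lower, median log2 fold change -0.21), or 41.2% beside 27.1% of all genes tested. RAP1A, a small GTPase that promotes integrin activation, read 47.3, 47.3 and 46.4 TPM in siNC and 21.5, 22.2 and 21.8 TPM in siBCAT1 (log2 fold change -1.07, SE 0.06, limma adjusted p = 0.000166). BCAR1, a scaffold of focal adhesions, went from 142 to 93.3 TPM (log2 fold change -0.61, limma adjusted p = 0.00103). Among the others that fell were PXN, VCL, SRC, PTK2B, NEDD9, TNS1, ACTN4, FLNA and DST. Tested but not called were TLN1, TLN2, FERMT1, FERMT2, FERMT3, PTK2, FYN, LIMS1, LIMS2, PARVA and PARVB. The same held for ZYX, TNS2, TNS3, CRK, ACTN1, SHARPIN, ITGB1BP1, PLEC and GIT2. VASP, an actin regulator, and ILK, an adaptor that binds beta integrin tails, rose with log2 fold changes of 0.43 and 0.32 (limma adjusted p = 0.00308 and 0.00314). The count of 14 went to 8 without siNC library 1 or siBCAT1 library 2 and to 9 without siBCAT1 library 1 or siBCAT1 library 3, where the count over all genes also went from 3865 to between 2318 and 2501.

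The cells were checked against cell type markers. KRT7, KRT8, KRT18 and KRT19, keratins of simple epithelia, and the epithelial cadherin CDH1 were expressed and fell in siBCAT1, 5 of the 6 epithelial and lung adenocarcinoma markers tested out of 10 (83.3% beside 27.1% of all genes tested). The other, EPCAM, read 0.91, 1.35 and 1.55 TPM in siNC and 2.42, 1.96 and 2.61 TPM in siBCAT1, with groups apart in the opposite direction (log2 fold change 0.56, limma adjusted p = 0.0732). The summed level of that list was 2546 to 2948 TPM in siNC and 1648 to 1936 TPM in siBCAT1. CDH1 read 17.8, 12.5 and 28.8 TPM in siNC and 4.30, 0.85 and 4.16 TPM in siBCAT1 (log2 fold change -2.41, SE 0.45, limma adjusted p = 0.00881). The lung lineage markers NKX2-1, NAPSA, SFTPB and SFTPC did not reach the filter, and SFTPC was listed at 0 in every library. Of 6 fibroblast markers, DCN and LUM were listed at 0 in all libraries and only PDGFRB was tested (5.49 to 2.57 TPM, lower), with a summed level of 4.89 to 7.13 TPM in siNC and 2.57 to 3.33 TPM in siBCAT1. Endothelial markers summed to 0.80 to 0.99 TPM in siNC and 1.04 to 2.69 TPM in siBCAT1, with 1 of 5 tested and not past the threshold. Of 6 leukocyte markers, 2 were tested and CD68, a lysosomal protein, was higher. Their sum was 30.5 to 39.9 TPM in siNC and 53.7 to 60.8 TPM in siBCAT1, with CD3E listed at 0. The part of the epithelial markers in the laminin, collagen and integrin changes was not tested, and in bulk RNA fewer cells of a kind and less RNA per cell cannot be told apart.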

How the data were processed

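Total RNA of 6 libraries was made into stranded mRNA libraries. The deposited table gives TPM per gene, which the authors made by read cleaning (fastp), alignment (HISAT2) and assembly-based quantification (StringTie) on GRCh38, as the submitters' processing notes and the study's methods name them. Versions are not given in the sources used here. The unit was read from the values, which sum to between 992512 and 995593 per library. TPM keeps no total depth, so that the depth is unknown and no counting interval is given. Groups were taken from the labels. Genes averaging 1 TPM or more were tested two-sided with limma 3.58.1 under R 4.3.3 (lmFit and eBayes, trended prior) on log2(TPM + 1), with Benjamini-Hochberg adjustment over 14286 genes and a threshold of 0.05. The study names gene set enrichment for these libraries and no test of single genes. The fit was tested on simulated data. An exact permutation test of 3 against 3 libraries cannot go below p = 0.1, and none was run.

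Per-library values are given for BCAT1, for members past the threshold with an absolute log2 fold change of at least 0.5, for the 3 highest members of each family, for their partner chains and for those next to the filter. From each list of other genes, the 2 with the smallest adjusted p in each direction are given, and any other gene was named after its values were seen. Some single genes are not reported here. The members and lists were chosen with earlier results of these data known. Positions came from GENCODE 29 (all 82 members matched by Ensembl ID) and promoter windows from RefSeq (GRCh38.p14). The alternatives were no filter, a minimum mean of 5 TPM, 0.1 as the pseudocount, median-ratio scaling, quantile normalization, a gene length correction, a replicate block and leaving out each library.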

Additional observations from a re-analysis of the deposited data

How the results depend on the processing

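Of the 13 members called, 8 (COL12A1, COL13A1, COL8A1, COL9A2, ITGA3, LAMB2, LAMB3 and LAMA5) stayed past the threshold in the same direction under every alternative of the 13 that tested them, 5 lost the call under some, and 0 changed sign. Of the 20 not called, 5 passed under some alternative. Without the filter 31860 genes were tested and 2567 were called. Among them were 4 collagens, 3 laminins, 1 integrin and 9 adhesion machinery genes. The members that lost the call there were LAMC1, COL7A1, COL1A1, COL5A2 and ITGA2 (limma adjusted p between 0.0631 and 0.0992). Under a minimum mean of 5 TPM, where ITGA2 is not tested, 1 integrin was called. Leaving out 1 library gave 4 to 7 collagens, 3 to 4 laminins, 1 to 3 integrins, 8 to 13 adhesion machinery genes and 2318 to 3706 of all genes. The replicate numbers were not taken as pairs in the main result. Same-numbered libraries deviated together with correlations of 0.0844, 0.102 and 0.124, and each library correlated best with its own number. Libraries with different numbers had correlations between -0.0814 and -0.0134. FRAS1, described below, was also high in library 2 of both groups. Whether equal numbers mark a shared handling was not tested. With the replicate block 4 integrins were called, ITGAE (adjusted p = 0.0383, limma) and ITGB3 (0.0217) being added as higher, and 4568 of all genes instead of 3865. Some members that were not called changed sign. ITGB1 had a log2 fold change of -0.00899 under median-ratio scaling and -0.00476 with the length correction, and ITGB5 had -0.0109 under median-ratio scaling and -0.0666 under quantile normalization. Without 1 library the log2 fold change ran from -0.183 to 0.102 for COL16A1, from -0.308 to 0.184 for COL17A1, from -0.0346 to 0.0782 for ITGB1, from -0.131 to 0.0814 for ITGA5, from -0.046 to 0.0726 for ITGB5, from -0.241 to 0.0215 for ITGAV and from -0.107 to 0.191 for LAMA3. The cause was not tested for these changes beyond the number of genes or libraries tested.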

Other observations

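Some matrix genes stood apart in single libraries or in libraries with the same number. FRAS1, a basement membrane protein of the list of other ligands and receptors, read 2.11, 26.3 and 1.58 TPM in the siNC libraries and 2.50, 24.2 and 1.45 TPM in the siBCAT1 libraries, so that library 2 was the high one in both groups. Among members under the filter, COL21A1 read 1.51 TPM in siNC library 3 and at most 0.08 TPM in the other 5 libraries, and LAMA2, a laminin alpha chain of muscle, read 1.58 TPM in siNC library 3 and at most 0.47 TPM elsewhere. These genes were chosen after their values were seen, and the gaps between single libraries were not tested.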
